A study of Mus musculus with 20 samples.

Results

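The levels of 10 immediate early genes were followed in the adult hippocampus of 20 mice whose dams had breathed nanosized particulate matter (nPM) or filtered air during pregnancy. The genes were Fos, Fosb and Junb of the AP-1 family, Egr1, Egr2, Egr3 and Egr4 of the EGR family, and Npas4, Nr4a1 and Arc. They were taken by symbol from the 48709 genes of the deposited table, and all 10 were among the 19797 genes that passed the filter on low counts. Total RNA of whole hippocampal tissue was sequenced, so a level is an average over all cells of the sample, and fewer cells with a transcript cannot be told apart from less transcript in each cell.

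The samples, all labelled C57BL/6 (C57BL/6J in the study's methods), crossed sex with exposure and gave 4 groups of 5, control and nPM mice of each sex. Dams of the nPM groups inhaled re-aerosolized urban particles for 5 h on 3 days of each week, from gestational day 2 to birth, while dams of the controls were handled in parallel with filtered air. The sample labels give the dose as 300 mg/m3, and the study's methods give the same figure in μg/m3. The offspring themselves were not exposed after birth. The study's methods give 19 weeks of age at tissue collection without a split by sex. The labels put females at 17.71 to 18.29 weeks of age and males at 18.57 to 19.14 weeks, so sex and age cannot be told apart. The study's methods describe injections of the nucleoside EdU in male mice for a study of males only, and add that every animal was injected. Whether this covers the females is not stated. Whether the sexes were collected or sequenced apart is not given in the sources used here. Any such differences could not be told apart from sex either. The offspring examined in the study came from several litters of each exposure, and the labels do not tie a sample to a litter, so the p-values below measure the spread between these samples. No animal was labelled as stimulated before death, and the time between handling and dissection is not given in the sources used here. The study's methods describe a forced swim test and a glucose tolerance test of the offspring at earlier ages, and euthanasia by cardiac puncture.

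Immediate early genes are switched on by synaptic activity, growth factors and stress through transcription factors that already wait in the cell, so their transcripts appear before any new protein has been made and decay soon afterwards. Calcium entry and the MAP kinase cascade reach them through CREB, the serum response factor SRF with its ternary complex partners, and MEF2 proteins. In the hippocampus their products are used as marks of recently active neurons, and several of them are needed for lasting synaptic change and memory.

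The promoters show sequence that CREB family proteins are known to bind, and are printed because the windows of 6 of the genes share it. RefSeq start sites on GRCm38.p6, with 250 bases before and 50 after the start, were matched by symbol for 7 of the 10 genes (Egr1, Egr3 and Arc were not among them). Egr2 had 5 windows, of which the one nearest its start in the deposited gene map was read, and the other 6 genes had 1 each. The 5 letters TGACG, the core of a cAMP response element, were searched on both strands, so they read CGTCA on the other strand. They were found 12 times, in 6 of the 7 windows read, and in 20.81% of the 32851 windows of the table. Each stretch below runs 5′ to 3′ along the gene's strand, from 10 bases before the first match to 10 bases after the last where the window allows, with the matches in capitals. Fos lies at chr12:85473751-85473838 (+), Fosb at chr7:19310091-19310115 (−), Junb at chr8:84978840-84978864 (−), Egr4 at chr6:85513684-85513776 (−), Npas4 at chr19:4990126-4990160 (−) and Nr4a1 at chr15:101266603-101266820 (+).
Fos: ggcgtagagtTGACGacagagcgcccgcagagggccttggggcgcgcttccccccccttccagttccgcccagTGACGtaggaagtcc
Fosb: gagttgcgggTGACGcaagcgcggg
Junb: ttcctgacagTGACGcgagccgcct
Egr4: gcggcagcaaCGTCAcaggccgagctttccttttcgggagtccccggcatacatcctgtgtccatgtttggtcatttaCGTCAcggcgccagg
Npas4: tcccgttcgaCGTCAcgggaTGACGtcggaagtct
Nr4a1: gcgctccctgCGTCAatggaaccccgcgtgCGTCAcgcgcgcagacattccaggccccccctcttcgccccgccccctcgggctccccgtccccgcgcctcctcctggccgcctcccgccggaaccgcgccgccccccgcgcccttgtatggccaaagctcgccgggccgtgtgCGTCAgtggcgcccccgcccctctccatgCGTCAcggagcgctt

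Counted from the start site as base 0, the matches nearest the start were at −66 to −62 in Fos, −60 to −56 in Fosb, −106 to −102 in Junb, −109 to −105 in Egr4, −169 to −165 in Npas4 and −40 to −36 in Nr4a1. The full palindrome TGACGTCA, which contains the shorter core, was in none of the 7 windows and in 1.79% of all windows. The CArG box that SRF binds (CC, 6 of A or T, GG) was in none of the 7 and in 1.629% of all windows, and the AP-1 site TGANTCA in none of the 7 and in 7.808%. The EGR site GCGNGGGCG was in the windows of Fosb and Nr4a1 and in 5.552% of all windows. The letters TATAAA of the TATA box were in 13.62% of all windows. They lay at −33 to −28 in Fos and at 0 to 5, on the start site itself, in Junb. The core was missing from the window read for Egr2 but was in 3 of the 5 windows of that gene. A match describes these letters in this window alone.

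Between 19092067 and 38663408 reads were counted on genes per sample, with TMM factors from 0.957 to 1.06. Pyramidal and granule cell markers of the hippocampus were read in every sample, with summed levels of 222 to 409 CPM for 5 CA1 genes, 183 to 316 CPM for CA3 genes and 233 to 503 CPM for 7 dentate granule cell genes. Markers of neighbouring tissue were also read. Their sums ran from 32.2 to 8154 CPM for choroid plexus, from 35.1 to 270.5 CPM for striatum and from 1.25 to 56.8 CPM for blood.

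Compared per length as RPKM (reads scaled to transcript length and sample total), the transcripts fell into a wide order. Arc, which encodes a synaptic protein that drives internalization of AMPA receptors, led with 39.2 ± 21.5 RPKM (mean ± SD, n = 20). Egr1 followed at 19.2 ± 7.93 and Nr4a1 at 15.8 ± 6.90 RPKM. Junb at 7.23 ± 1.77, Egr3 at 7.03 ± 2.42 and Fos at 6.00 ± 3.26 RPKM formed a middle group. Npas4 at 2.09 ± 0.931, Egr4 at 1.77 ± 0.551, Egr2 at 1.39 ± 1.02 and Fosb at 0.680 ± 0.276 RPKM were lowest. The log2 ratio of neighbours was compared within samples by 100000 sign permutations, with adjustment over 9 pairs. Arc was above Egr1 in 20 of 20 samples (permutation p = 1e-05, the smallest possible; adjusted p = 3e-05). Fos was above Npas4 in 20 of 20 samples at the same p. Junb and Egr3 (adjusted permutation p = 0.520), Egr3 and Fos (0.125), and Npas4 and Egr4 (0.253) could not be separated beyond their spread.

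On the log2 scale the estimate furthest from 0 for exposure was that of Npas4 in females, with a mean of 5.43 CPM after nPM against 9.35 CPM in controls, a difference that did not pass adjustment over all genes. In the fit of both sexes limma called 0 of the 10 genes at the study's threshold of p under 0.005, beside 28 of 19797 genes (0.141%). There edgeR called 0 of the 10 (0.131% of all genes) and DESeq2 0 of the 10 (0.217%). At an unadjusted p under 0.05 limma called 0 of the 10 and 2.1% of all genes. At a Benjamini-Hochberg adjusted p under 0.05 limma called 0 of the 10 and 0% of all genes, and edgeR and DESeq2 called 0 of the 10 as well. The log2 fold changes, nPM against control, ran from −0.38 (Npas4) to 0.17 (Egr4) with standard errors of 0.16 to 0.48, with a median of 0.01 beside −0.01 over all genes. In males 0 of the 10 passed 0.005 (0.207% of all genes), 0 passed 0.05 (4.28%) and 0 passed the adjusted threshold (0%) in limma, and at 0.005 edgeR called 0 (0.207%) and DESeq2 0 (0.571%). At the adjusted threshold in males edgeR called 0 of the 10 (0%) and DESeq2 0 (0.00505%). In females 0 of the 10 passed 0.005 in limma (0.0859% of all genes) and 0 in edgeR (0.141%), while DESeq2 called 1 (0.278%). At p under 0.05, 1 of the 10 passed in females in each of these tools (2% of all genes in limma, 3.02% in edgeR and 2.88% in DESeq2), and 0 passed the adjusted threshold in any of them (0% of all genes in limma and edgeR, 0.00505% in DESeq2). That gene was Npas4. For 0 of the 10 genes did the 5 nPM samples lie wholly outside the 5 controls, either in females (0.349% of all genes) or in males (0.662%).

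**Figure D1:**
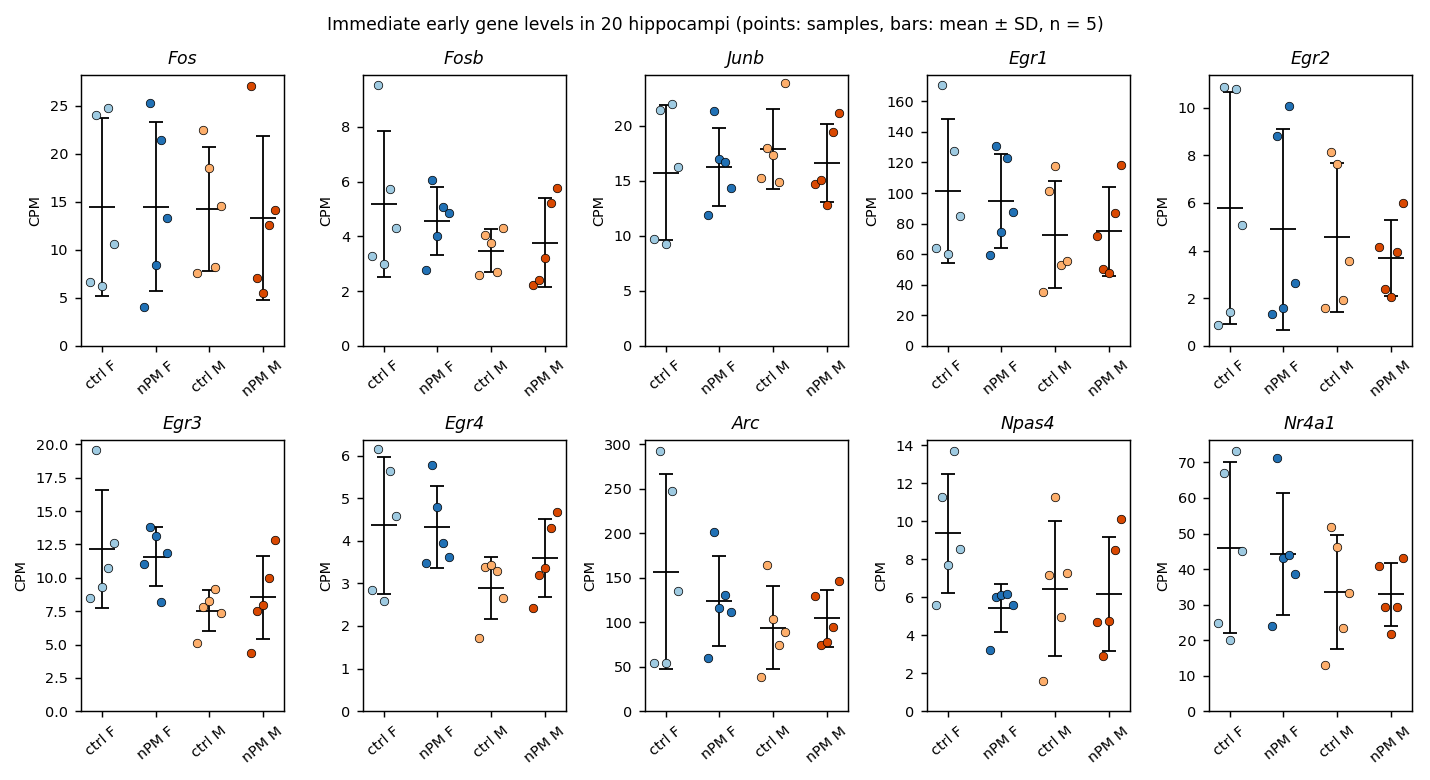
Levels of the 10 genes in CPM (counts scaled to the sample total, vertical axis, linear from 0) in the 4 groups, where ctrl is control, F female and M male. Points are samples and bars are the mean ± SD of 5; the nPM and control points overlap for every gene within each sex, and the Npas4 points of nPM females reach no higher than 6.18 CPM.

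Fos (ENSMUSG00000021250.13, mm10 chromosome 12, 85473890 to 85477273) encodes the AP-1 subunit that pairs with Jun proteins and is the usual histological mark of activated neurons. Its level was 6.68, 24.1, 6.20, 24.7 and 10.6 CPM in control females 1 to 5 and 4.03, 25.3, 8.46, 21.4 and 13.3 CPM in nPM females. In males it was 7.56, 22.4, 18.5, 8.25 and 14.6 CPM in controls and 27.1, 7.01, 5.51, 12.6 and 14.2 CPM after nPM. Each group held samples under 10 CPM and at least 1 sample over 20 CPM, so the groups overlapped along nearly their whole range. Limma's log2 fold change was −0.12 (SE 0.53) in females and −0.16 (SE 0.42) in males. The unweighted difference of mean log2 CPM, on which the exact permutation tests here rest, was −0.02 in females (exact permutation p = 1) and −0.20 in males (exact permutation p = 0.683).

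Fosb (ENSMUSG00000003545.3, chromosome 7, 19302696 to 19310051), a Fos relative whose truncated splice form is known to build up under repeated stimulation, was the least abundant of the 10 genes per length, at 70 to 250 counts per sample. These counts do not separate its splice forms. Female controls had 5.17 ± 2.67 CPM and nPM females 4.56 ± 1.23 CPM (SD, n = 5), and males had 3.49 ± 0.787 CPM as controls and 3.77 ± 1.63 CPM after nPM. Junb (ENSMUSG00000052837.6, chromosome 8, 84974484 to 84978718), a Jun protein that pairs with Fos proteins, had 15.7 ± 6.13 CPM in female controls against 16.3 ± 3.54 CPM after nPM, and 17.9 ± 3.63 CPM in male controls against 16.7 ± 3.55 CPM after nPM. Junb overlaps Prdx2 by 351 bases, and with no strand setting stated in the sources used here, reads from those bases cannot be assigned to either gene. In females the log2 fold change was −0.11 for Fosb (SE 0.31) and 0.10 for Junb (SE 0.26), each smaller than its error, and in males it was 0.03 and −0.11.

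Egr2 (ENSMUSG00000037868.15, chromosome 10, 67535475 to 67542188), a zinc finger factor best known from hindbrain patterning and peripheral myelination, spread most widely. Control females had 0.864, 10.9, 1.40, 10.8 and 5.07 CPM and nPM females had 1.32, 8.82, 1.60, 10.1 and 2.66 CPM. Among males the controls had 1.60, 8.14, 7.64, 1.91 and 3.54 CPM and the nPM samples had 4.13, 2.37, 2.03, 3.92 and 6.01 CPM. The highest sample, control female 2, exceeded the lowest, control female 1, by 12.6-fold, and both belong to 1 group. High and low samples stood in each female group, and limma's log2 fold change was −0.23 in females (SE 0.79) and −0.05 in males (SE 0.46). The difference of mean log2 CPM was −0.11 in females (exact permutation p = 0.889) and −0.11 in males (exact permutation p = 0.857).

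Egr1 (ENSMUSG00000038418.7, chromosome 18, 34859823 to 34864984), a zinc finger factor required for late long-term potentiation, had 101.5 ± 47.1 CPM in female controls against 95.1 ± 30.8 CPM after nPM, and 72.7 ± 35.0 CPM in male controls against 75.1 ± 29.1 CPM after nPM (SD, n = 5). Egr4 (ENSMUSG00000071341.4, chromosome 6, 85511121 to 85513589), another zinc finger factor of the family, was read at 46 to 203 counts per sample. Egr4 had 2.85, 6.15, 2.59, 5.64 and 4.58 CPM in control females and 3.47, 5.77, 4.79, 3.94 and 3.61 CPM in nPM females. In males its level was 1.71, 3.39, 3.43, 3.29 and 2.65 CPM in controls and 2.41, 3.20, 3.37, 4.31 and 4.68 CPM after nPM, and 2 nPM males lay above every male control. Its male log2 fold change of 0.30 was the highest of the 10 genes in that sex and was of the order of its error (SE 0.23, limma p = 0.218; difference of mean log2 CPM 0.32, exact permutation p = 0.302).

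Arc (ENSMUSG00000022602.14, chromosome 15, 74669083 to 74672570) was the most abundant of the 10 transcripts in CPM as well, at 1031 to 8891 counts per sample. Its level was 54.3, 292, 54.3, 247 and 135 CPM in control females and 59.6, 201, 116, 131 and 111 CPM in nPM females. Male controls had 38.4, 164, 104, 74.7 and 89.2 CPM and nPM males 129, 74.4, 77.6, 94.5 and 146 CPM. Control females held both the highest samples and 2 of the 3 lowest, and the nPM samples of each sex lay inside the range of its controls. Nr4a1 (ENSMUSG00000023034.6, chromosome 15, 101266846 to 101274792), an orphan nuclear receptor that acts as a transcription factor without a known hormone, had 46.0 ± 24.0 CPM in female controls against 44.2 ± 17.2 CPM after nPM, and 33.6 ± 15.98 CPM in male controls against 32.9 ± 8.86 CPM after nPM (SD, n = 5). Limma's fold changes of Arc were −0.10 in females (SE 0.48) and 0.25 in males (SE 0.32) on the log2 scale, and those of Nr4a1 were 0.02 (SE 0.37) and 0.09 (SE 0.33).

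Npas4 (ENSMUSG00000045903.8, chromosome 19, 4984355 to 4989971) encodes a bHLH-PAS transcription factor that is induced by calcium entry in neurons and is known for shaping inhibitory synapses onto active cells. Its level was 5.60, 11.3, 7.70, 13.7 and 8.53 CPM in control females and 3.24, 6.00, 6.14, 6.18 and 5.58 CPM in nPM females. In males it was 1.56, 7.17, 11.3, 4.96 and 7.26 CPM in controls and 4.71, 2.88, 4.73, 8.50 and 10.1 CPM after nPM. Of the control females 4 lay above every nPM female, while control female 1, at 5.60 CPM, lay among them. The nPM females other than sample 1 sat within 5.58 to 6.18 CPM, and the male groups overlapped throughout.

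The mean of Npas4 was 9.35 ± 3.16 CPM in control females and 5.43 ± 1.25 CPM in nPM females (SD, n = 5), which is −0.78 on the log2 scale (SE 0.27; limma p = 0.0118 and, over all genes, adjusted p = 1; difference of mean log2 CPM −0.75, two-sided exact permutation p = 0.0317, where 252 groupings allow no p below 0.00794). In males the log2 fold change of Npas4 was 0.05 (SE 0.46, limma p = 0.919; difference of mean log2 CPM 0.05, exact permutation p = 0.913). The difference between the sexes, male minus female, was 0.83 (SE 0.58, n = 20, limma p = 0.162), so a sex difference in the response of Npas4 was not resolved. Among the females (n = 10), Npas4 passed 0.005 under 3 alternatives, among them DESeq2 (p = 0.00187) and the fit without control female 1 (log2 fold change −0.96, limma p = 0.00166), and it missed 0.05 when the spread was shared over the 4 groups (limma p = 0.0669). With each of the 10 females left out in turn, the log2 fold change of Npas4 stayed between −0.96 and −0.59, and limma's p between 0.00166 and 0.0364. Set against the mean log2 level of the other members in the same sample, Npas4 stood at −1.43 to −0.22 in control females and at −2.07 to −1.20 in nPM females, ranges that overlap. In males the same measure ran from −2.25 to −0.63 in controls and from −1.87 to −0.87 after nPM.

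For the interaction of sex and exposure, limma called 0 of the 10 genes past 0.005 (0.217% of all genes), 0 past 0.05 (3.79%) and 0 past the adjusted threshold (0%), and at 0.005 edgeR called 0 (0.333%) and DESeq2 0 (0.45%). At the adjusted threshold edgeR called 0 of the 10 (0.00505%) and DESeq2 0 (0%). The p-values of the 10 genes ran from 0.162 for Npas4 to 0.962 for Fos in limma. The standard errors of these differences were 0.33 for Junb to 0.99 for Egr2 on the log2 scale.

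**Figure D2:**
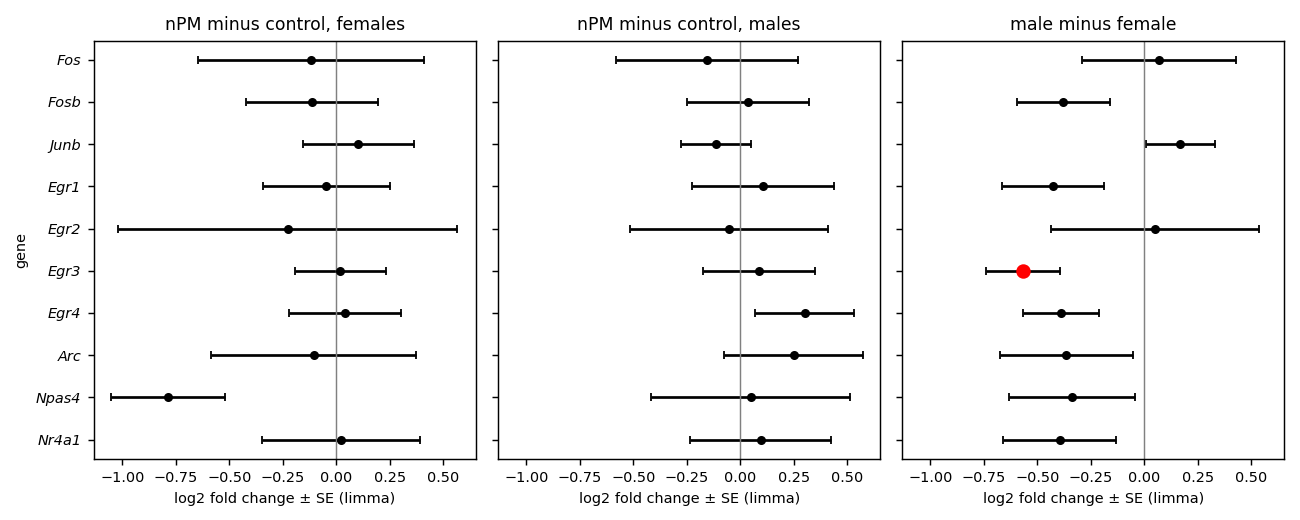
Log2 fold changes (horizontal axis) with standard errors from limma for the 10 genes, for nPM minus control in females and in males and for male minus female with exposure as a covariate. The large red point marks a limma p under 0.005, reached only by Egr3 at −0.57 for male minus female. The fit of that panel called 31.1% of all genes at this threshold. Npas4 in females stands at −0.78, and all other female exposure estimates lie between −0.23 and 0.10.

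Egr3 was lower in males than in females, in a fit that called 40.4% of all genes at the adjusted threshold. Egr3 (ENSMUSG00000033730.3, chromosome 14, 70077445 to 70080157), a zinc finger factor downstream of neuronal activity that is also known for muscle spindle development, was 8.48, 19.6, 9.32, 10.7 and 12.6 CPM in control females and 11.1, 13.8, 13.1, 8.15 and 11.8 CPM in nPM females. Among males it was 5.10, 7.78, 8.23, 9.19 and 7.39 CPM in controls and 4.37, 7.49, 7.95, 9.99 and 12.8 CPM after nPM. Above 10 CPM lay 7 of the 10 females and 1 of the 10 males, and the ranges of the sexes overlapped. The log2 level of Egr3, male minus female with exposure as a covariate, was −0.57 (SE 0.17, n = 10 of each sex, limma p = 0.00344, adjusted p = 0.0119). Within each sex Egr3 had log2 fold changes for nPM of 0.02 in females (SE 0.21) and 0.09 in males (SE 0.26).

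In this fit limma called 1 of the 10 genes past 0.005, beside 31.1% of all genes, 1 past the adjusted threshold, beside 40.4%, and 2 past 0.05, beside 48.4%. The second gene was Egr4, at −0.39 (SE 0.18, n = 10 of each sex, limma p = 0.0412, adjusted p = 0.0883). The estimate was negative for 7 of the 10 genes and for 9456 of the 19797 genes tested, with a median of −0.37 over the 10 and 0.02 over all genes. For 0 of the 10 did the male and female samples not overlap (4.82% of all genes). The p of Egr3 rose above 0.005, to at most 0.00773, without any 1 of control females 2 and 5, control males 1, 2 and 5, nPM females 2, 3 and 5, and nPM males 1 and 2, while its log2 difference stayed between −0.65 and −0.45 with each of the 20 samples left out. Sums of some cell type markers also differed between the sexes. The 5 endothelial genes summed to 128 to 156 CPM in female controls and 137 to 186 CPM in nPM females, above the 105 to 124 CPM of male controls and 104 to 122 CPM of nPM males, with no overlap. The 5 astrocyte genes summed to 1055 to 1174 and 1086 to 1275 CPM in the female groups against 1273 to 1561 and 1203 to 1586 CPM in the male groups. The 6 choroid plexus genes had medians of 281 and 89.2 CPM in the female groups and of 2929.9 and 828 CPM in the male groups, with ranges that overlapped. Their highest sum, 8154 CPM, was in an nPM female and their lowest, 32.2 CPM, in a control male. With group means removed, Egr3 had r = −0.55 with the astrocyte sum (rho = −0.54, permutation p = 0.0300, adjusted p = 0.364 over 170 relations; r = −0.49 without the 2 farthest samples), −0.10 with the endothelial sum (rho = −0.16, permutation p = 0.670) and 0.297 with the choroid plexus sum (rho = 0.173, permutation p = 0.200). The part of these cell types in the Egr3 difference was not tested.

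Variation between animals of the same group was large. With group means removed, the SD of log2 CPM was 1.25 for Egr2, 0.92 for Fos, 0.79 for Arc, 0.72 for Npas4 and 0.68 for Nr4a1. It was 0.60 for Egr1, 0.54 for Fosb, 0.43 for Egr3, 0.43 for Egr4 and 0.40 for Junb. The median over all 19797 genes was 0.26. Egr2 stood at percentile 98.0 of all genes by this SD, Fos at 94.9, Arc at 92.2 and Npas4 at 90.1, and Junb, the steadiest, at 67.9. The 4 highest were in the top 10% of all genes, and 3 to 4 of the set were there with each sample left out. Among the 12578 genes that were at least as abundant as the lowest of the 10, the median SD was 0.17, and the 10 genes stood at percentiles 92.0 to 99.7. Counting error accounted for 0.120% (Arc) to 11.1% (Egr4) of the variance.

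The animals that were high for 1 immediate early gene tended to be high for the others. Control female 2 was among the 5 highest of 20 samples for all 10 genes, control female 4 and nPM female 2 for 9 each, and nPM male 5 for 7. Control male 1 was among the 5 lowest for 8 of the genes, nPM female 1 for 7, and control female 3 and nPM male 2 for 6 each. Samples at each end came from both exposures. Control females alone held the 2 samples with the highest mean standardised level, 1.62 and 1.25 SD above the 20-sample mean, and 2 of the 3 with the lowest, each at −0.90.

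**Figure D3:**
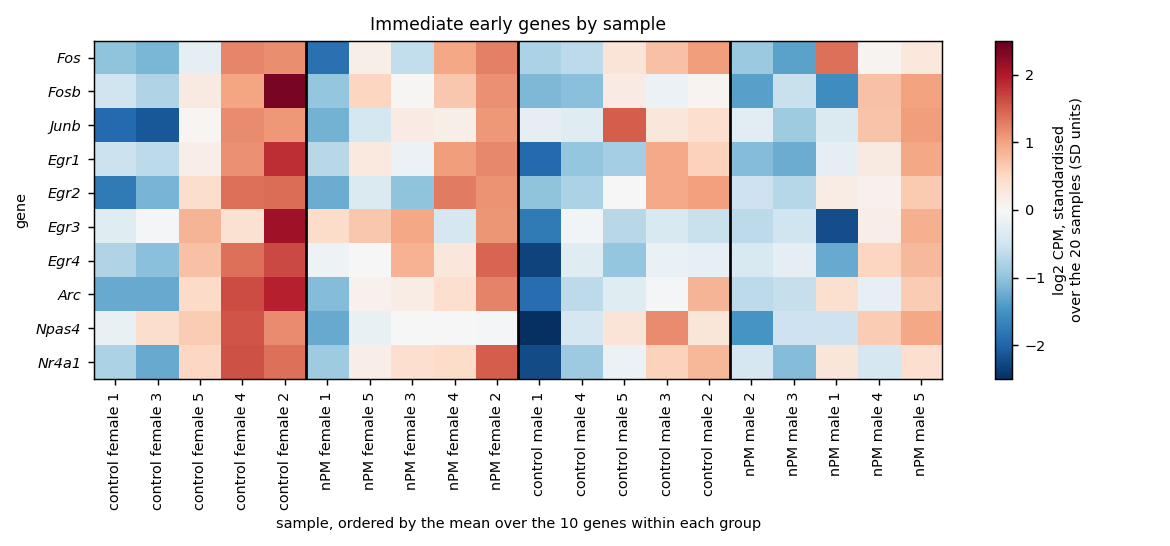
Log2 CPM of each gene, standardised over the 20 samples (colour, in SD units; red high, blue low), for each gene (vertical) and sample (horizontal), with black lines between groups and samples ordered within a group by their mean. Several columns have 1 colour from top to bottom, such as control female 2 (mean 1.62) and control male 1 (mean −1.60), and each group runs from low to high samples.

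Over the 20 samples, with group means removed, all 45 pairs of genes had a positive Pearson's r, with a median of 0.755. Of these, 42 had a permutation p under 0.05 after Benjamini-Hochberg adjustment over the 45 pairs, and 40 did by Spearman's rho. Arc and Nr4a1 were the closest pair (r = 0.959, rho = 0.968, permutation p = 1e-05, the smallest possible, adjusted p = 5.62e-05; r = 0.955 without the 2 samples farthest from the median of Arc). Egr2 with Arc (r = 0.900, rho = 0.920) and Egr1 with Egr2 (r = 0.899, rho = 0.899) followed at the same permutation p of 1e-05. Without the 2 farthest samples these became 0.865 and 0.888. Fos and Nr4a1 had r = 0.865 (rho = 0.890, permutation p = 1e-05), and Egr2 had r = 0.875 with Nr4a1 (rho = 0.880, permutation p = 1e-05).

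Egr3 was the partner with the lowest r for 7 of the other genes. Its weakest relation was with Fos (r = 0.119, rho = 0.197, permutation p = 0.649; r = 0.124 without the 2 farthest samples), and those with Egr2 (r = 0.334, rho = 0.331, permutation p = 0.166, adjusted p = 0.170; r = 0.196 without the 2 farthest) and Nr4a1 (r = 0.420, rho = 0.382, permutation p = 0.0726, adjusted p = 0.0760; r = 0.526 without the 2 farthest) also missed the threshold. Its closest partner was Egr4 (r = 0.818). Arc had r = 0.934 with the mean of all other members, Egr1 0.921 and Nr4a1 0.906, while Fos had 0.772 and Egr3 0.556. A first principal component held 75.5% of the variance of the 10 standardised genes, with all loadings positive. The next component held 12.4% and set Egr3 (loading −0.69) and Egr4 (−0.34) against Fos (0.47) and Egr2 (0.26).

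**Figure D4:**
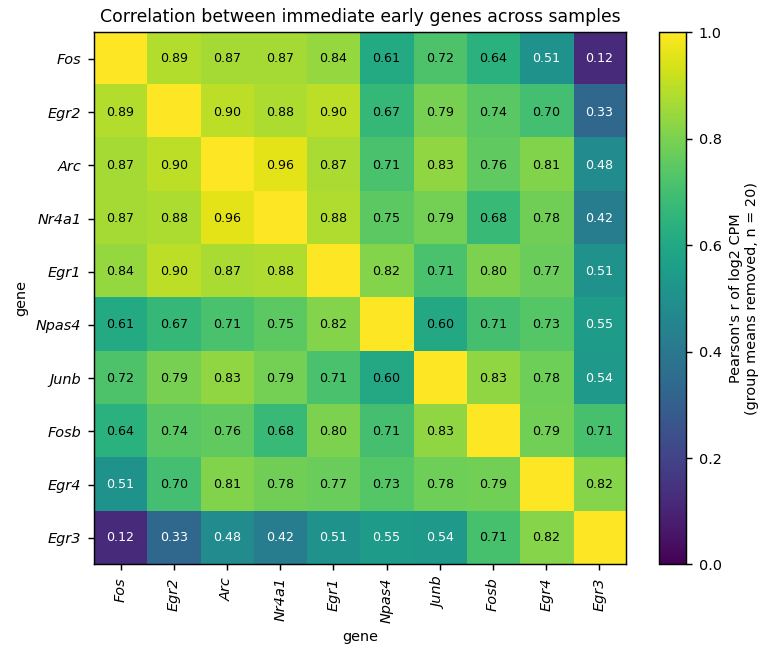
Pearson's r of log2 CPM, group means removed, for each pair of the 10 genes over 20 samples (colour and printed value; both axes list the genes). Arc, Nr4a1, Egr1, Egr2 and Fos form a block at 0.84 to 0.96, and the row of Egr3 falls from 0.82 with Egr4 to 0.12 with Fos.

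Within the 10 females 37 of the 45 pairs passed the same threshold, with a median r of 0.872, and within the 10 males 16 pairs passed, with a median r of 0.635. The difference between the sexes was not tested. Arc and Nr4a1 were close within both, at r = 0.981 in females (adjusted permutation p = 0.00327) and r = 0.950 in males (adjusted permutation p = 0.00641). In males Fos had r = −0.13 with Egr3 and 0.156 with Egr4, where nPM male 1 combined the highest Fos of the 20 samples (27.1 CPM) with the lowest Egr3 (4.37 CPM). Without nPM male 1, 43 of the 45 pairs over all other samples passed.

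Summed markers of 14 cell types and regions, total counts, the share of mitochondrial ribosomal RNA (9.16% to 13.3%) and age were set against each gene in the same way, 170 relations in all. None passed an adjusted permutation p under 0.05, and the smallest adjusted p was 0.332, reached by several. Those with the smallest p were Egr1 with neocortex markers (r = 0.640, rho = 0.635, permutation p = 0.00529; r = 0.539 without the 2 farthest samples) and Egr3 with CA1 markers (r = 0.645, rho = 0.579, permutation p = 0.00715; r = 0.567 without the 2 farthest). Npas4 with blood markers had r = −0.70 (rho = −0.59, permutation p = 0.0113), and r = −0.40 without control male 1 and nPM male 2. Summed neocortex markers ran from 104 to 225 CPM and CA1 markers from 222 to 409 CPM, and their part in the shared variation was not tested.

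Genes that answer the same signals were read from 4 lists by role. The pattern shared by the 10 genes, their mean standardised level with group means removed, was set against every other gene over the 20 samples as a description. Over 19787 other genes the median r was 0.00051 and 3.41% had an r over 0.5. Of 28 feedback and signalling response genes 17 were over 0.5, with a median r of 0.513, and of 23 other early transcription factors 12 were, with a median of 0.548. Of 21 late effectors 7 were over 0.5 (median 0.390), and of 29 upstream regulators 2 were (median 0.226).

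**Figure D5:**
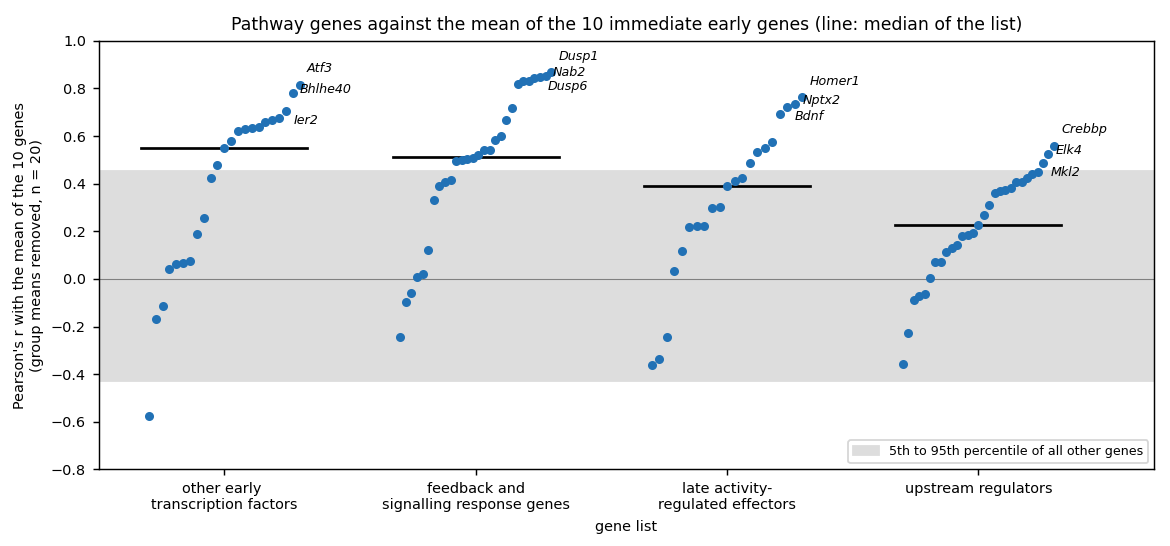
Pearson's r (vertical axis) of each pathway gene with the mean standardised level of the 10 immediate early genes over 20 samples, by list (horizontal axis). Points are genes, black lines are list medians (0.548, 0.513, 0.390 and 0.226 from left to right), and the grey band runs from the 5th to the 95th percentile of all other genes, −0.43 to 0.45.

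The 10 genes most like this shared pattern were named by the same measure. They were led by Dusp1 (r = 0.868), a phosphatase that switches MAP kinases off, and held its relatives Dusp6 (0.848), Dusp5 (0.842) and Dusp4 (0.818). Nab2 (0.851), a corepressor of EGR proteins, Spry2 (0.831), an inhibitor of receptor tyrosine kinase signalling, and Trib1 (0.830), a pseudokinase, were also among them. Outside the lists stood Tent4a (0.861), which adds nucleotides to RNA ends, the sorting receptor gene Sorl1 (0.831) and 1700016P03Rik (0.816). Sorl1 had a mean of 629 CPM, the most abundant of these.

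Among the other early transcription factors Atf3, a stress-responsive bZIP factor, was closest (r = 0.815), although it was read at 0.256 to 1.99 CPM, followed by Bhlhe40 (0.780) and Ier2 (0.703). The AP-1 partners Jun (r = −0.11) and Jund (0.06) did not follow the pattern, and Hes1, a Notch target, had the lowest r of the list at −0.58. Of the late effectors Homer1, whose short activity-induced form loosens the postsynaptic scaffold, had 0.763, Nptx2, a secreted pentraxin that gathers AMPA receptors, 0.736, and the neurotrophin gene Bdnf 0.720. These counts do not separate the forms of Homer1. Penk was at −0.36 and Tac1 at −0.25. Of the upstream regulators the CREB coactivator gene Crebbp had 0.559, Srf 0.44 and Creb1 itself 0.0045.

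No gene of the 4 lists passed p under 0.005 for exposure in limma, either with both sexes, in males, in females or for the interaction. The shares of all genes were 0.141%, 0.207%, 0.0859% and 0.217% in the same order, so few or no calls would be met in lists of this size. At p under 0.05, the both-sexes fit called 0 of 23 early transcription factors, 0 of 28 feedback genes, 1 of 21 late effectors and 1 of 29 upstream regulators, beside 2.1% of all genes. Medians of the log2 fold changes in that fit were 0.03, −0.02, 0.03 and −0.01 in the same order, beside −0.01 over all genes. In females the medians of the 4 lists lay between −0.07 and −0.01, and in males between 0.00 and 0.09. At p under 0.05 the male fit called 1, 1, 1 and 2 genes of the lists in the same order, beside 4.28% of all genes. The female fit called 0 in each list, beside 2%.

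Between the sexes, limma called 14 of 29 upstream regulators past 0.005 (31.1% of all genes), and in males 5 of them were higher and 9 lower. Creb1, the activity-dependent activator of these genes, was higher in males by 0.35 on the log2 scale (SE 0.05, limma adjusted p = 3.22e-05), and the coactivators Ep300 (−0.36) and Crebbp (−0.38) were lower. Of 28 feedback genes 3 were higher and 1 lower in males (14.3% of the list, beside 31.1% of all genes). Rgs2, a brake on G protein signalling, was at 0.42 (SE 0.09) and Fbxo33 at 0.32 (SE 0.07), both higher in males, and the clock gene Per1 was lower at −0.60 (SE 0.11, limma adjusted p = 0.000338). Of 21 late effectors 9.52% passed. Syt4, a vesicle protein, was higher in males (0.45, SE 0.10) and Acan, the aggrecan of perineuronal nets, lower (−0.59, SE 0.13). Of 23 early transcription factors Klf6 alone passed (0.31, SE 0.09, limma adjusted p = 0.00645), which is 4.35% of that list.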

How the data were processed

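RNA-seq was measured in the hippocampus of 20 mice, in 4 groups of 5 by sex and gestational exposure. The authors depleted ribosomal RNA, trimmed adapters where needed with Trimmomatic, aligned reads to mm10 with HISAT2 and used featureCounts 1.5.0-p3 with Gencode M11. They deposited whole-number counts per gene without normalization, and a table with gene lengths and the mean RPKM of each gene over all samples. That mean was checked against the counts and was not tested. A strand setting and a rule for multiply aligned reads are not given in the sources used here.

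From the counts, TMM factors and filterByExpr (minimum count 10, minimum total 15, edgeR 4.0.16) gave log2 CPM with 0.5 counts added, fitted by limma-voom (limma 3.58.1, R 4.3.3) over 19797 genes for exposure with sex as a covariate, exposure in each sex, their interaction, and sex. CPM and RPKM of single samples were computed from the counts with the TMM factors. Thresholds were p under 0.005, as in the study, and a Benjamini-Hochberg adjusted p under 0.05 over all genes. Single genes were compared within a sex by exact permutation, and correlations by 100000 permutations within groups. A count of 0 would allow 3 counts, or 0.0776 to 0.157 CPM, by counting error alone. Replicates of a group differed by far more than counting noise (a mean chi-square of 14.8 to 92.6 per gene over 40 pairs), so none was counted as a duplicate.

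Alternatives were RLE factors, no filter, edgeR's quasi-likelihood test, DESeq2 1.42.0, sample quality weights, a replicate block, age added as a term, all 4 groups in 1 fit, and each sample left out. Each fit was tested on simulated counts with known changes. The genes and lists were chosen with earlier results of these data known. From each pathway list up to 3 genes with the smallest p under 0.005 in each fit were named, with the 10 genes most like the shared pattern. Other pathway genes were named for their correlation after its values were seen, and correlations within each sex were added after seeing the data.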

Additional observations from a re-analysis of the deposited data

Results flagged for a closer look

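In each of the 40 combinations of an immediate early gene and a group of 5 samples, the most extreme sample was compared with the other 4 by Dixon's criterion, which chance alone meets in about 1 in 20 groups. It was met in 1 combination. Npas4 in nPM female 1 had a log2 CPM of 1.70 (3.24 CPM), below the other nPM females at 5.58 to 6.18 CPM, with a gap of 0.838 of the group's range. Without this sample the log2 fold change of Npas4 in females was −0.59 and limma's p 0.0364.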

How the results depend on the processing

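Of 1160 values of a gene in a fit under an alternative, 1147 kept their direction or stayed without a call on the same side of 0.005, 10 lost a call (Egr3 by sex) and 3 gained one (Npas4 in females), and none reversed a called direction. The sign of 186 changed, none of them past the threshold. The fit of both sexes called 28 genes in all, and 71 with no filter on low counts, 43 with DESeq2, 53 with sample quality weights and 17 to 47 with each sample left out (17 without control female 1, 45 without control female 5, 47 without nPM female 4). In males 41 genes passed in all, and 132 with no filter, 113 with DESeq2 and 22 to 78 with a sample left out (22 without nPM male 5, 78 without nPM male 4). In females 17 passed, and 89 with no filter, 28 with edgeR, 55 with DESeq2, 41 with quality weights and 9 to 48 with a sample left out (9 without nPM female 5, 29 without control female 5, 32 without nPM female 1, 48 without nPM female 4). For the interaction 43 passed, and 149 with no filter, 66 with edgeR, 89 with DESeq2 and 24 to 77 with a sample left out (24 without control female 3, 77 without control female 1).

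Of the 10 members, 1 passed in females with DESeq2, and 0 to 1 with a sample left out (1 without control female 1). For sex, 2 members passed the adjusted threshold with DESeq2, beside 8361 of 19797 genes. With quality weights 2 passed as well, in a fit that called 6831 of all genes at p under 0.005. With a sample left out 1 to 2 passed (2 without control female 3), and at p under 0.005 the count was 0 to 1, beside 5485 to 6333 of all genes. Of the 45 correlated pairs 16 passed among males alone and 37 among females alone, with 10 samples in each. The cause of these changes was not tested.

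The labels do not say that samples of the same number share a litter or day. Deviations of same-numbered samples of a sex correlated at −0.36 to 0.157 over all genes. Over the 10 members they correlated at 0.689 to 0.839 for female numbers 1 to 4, at −0.86 for female number 5 and at −0.46 to 0.206 in males. The members vary together, with 75.5% of their variance in 1 component, so values over the members cannot decide whether samples are paired. A replicate block by sample number, a pairing that the labels do not give, was run as an alternative. With it 1 of the members, Npas4, passed in females with a log2 fold change of −0.75 and limma's p at 0.00128. For sex, 2 members passed the adjusted threshold, in a fit that called 5834 of all genes at p under 0.005. Fosb by sex went from limma's p of 0.0977 to 0.0356 (n = 20). No other call of the members at 0.005 or at the adjusted threshold changed with the block. Counting error was 11.1% of the variance for Egr4 and 6.50% for Fosb and at most 4.22% (Egr3) for the others.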
